A study of Bos taurus with 18 samples.

Results

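The data describe the resting transcriptome of rumen papillae from control cows on forage, as 5 RNA-seq libraries of the 18 in the study. The 5 were chosen by their labels alone: a diet of 100% forage and the control treatment. Papillae are the small leaf-like folds that line the rumen, and biopsies of them came from non-lactating, rumen-cannulated cows of the Holstein breed, with 5 controls and 4 cows under the label PHY. The cows were later moved to a ration with 65% concentrate. Those later libraries and the PHY libraries were used here only to set the common scale of the values. The labels give neither age nor cow for a library, and they do not say that the 5 libraries are 5 different cows. Libraries 1 to 5 below are the 5 forage_control replicates in order of deposit, and the number has no other meaning. No other group is compared, no p-value is given, and errors are SDs over the 5 libraries (n = 5).

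Rumen papillae are covered by a stratified squamous epithelium. Its basal layer divides and rests on a core of connective tissue with vessels, its middle layers are joined by many desmosomes, and its surface cornifies. Unlike skin, this epithelium absorbs: microbes in the rumen ferment forage to acetate, propionate and butyrate, and the epithelium takes these acids up, exchanges sodium, protons and bicarbonate with the lumen, and turns much of the butyrate into ketone bodies. The libraries were made from papilla tissue with all its cell types, so a lower value can mean fewer cells of a type or less RNA per cell, which cannot be told apart.

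Total reads ran from 15808999 to 33935756 per library. Nuclear protein-coding genes took 33.4, 37.9, 25.5, 40.7 and 50.6% of the reads in libraries 1 to 5, with a mean of 37.6 ± 9.26%. The 13 mitochondrial protein transcripts took 5.52% to 6.49%. A pair of genes without a symbol held between 38.2% and 63.5% of a library's reads and is left out of all gene results. Counting error adds little to these shares: the widest 95% Wilson interval among them and the family shares below reached 0.0246 percentage points to either side. A count of 0 allows up to 3 reads, which is 0.0969 to 0.226 CPM per library. Olfactory receptors, which are silent outside the nose in most tissues, gave a measure of background, and their 144 genes stood at 28.5, 64.96, 48.7, 18.2 and 16.3 CPM of total reads in libraries 1 to 5, highest in libraries 2 and 3. Levels are reads scaled to library size (CPM) on library sizes scaled by the TMM method. The olfactory receptor reads were not even over that family: the highest gene averaged 10.4 CPM by TMM, against a median gene of 0.187 CPM. Of the 144, 1 had at least 1 CPM in all 5 libraries, so the background measure can rest partly on single genes. On the TMM scale the coding genes as a whole are low in libraries 2 and 3 and high in libraries 4 and 5, and among coding genes averaging 10 CPM or more, libraries 1 to 5 were the highest for 17.8%, 2.96%, 4.81%, 33.6% and 40.8%. They were the lowest for 6.96%, 46.4%, 37.2%, 5.66% and 3.78%. Counts over gene lists were therefore repeated with the same counts scaled to the nuclear protein-coding reads of each library ("scaled to coding reads"), where the highest library was spread more evenly (17.8%, 20.6%, 27%, 19.2% and 15.5% for libraries 1 to 5). A library named below as highest or lowest for a single gene has that place on both scales unless the text says otherwise. CPM is a share of reads and was not divided by transcript length, so an order of genes by CPM is an order by reads: a long transcript gives more reads than a short one at the same number of molecules.

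Of 16646 nuclear protein-coding genes, 11251 had at least 1 CPM in all 5 libraries and are called detected (67.6%). A mean of at least 10 CPM was reached by 7273 (43.7%), and 790 genes reached 100 CPM and 22 reached 1000. Reads were spread over many genes: 841 genes together held the first 50% of coding CPM and 15 genes held the first 10%. The 100 genes with most reads held 21.6 ± 2.32% of coding reads.

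The genes with most reads were structural genes of the keratinocyte. The first 5 were KRT17 (ENSBTAG00000006806), DSP (ENSBTAG00000015106), KRT6A (ENSBTAG00000039425), KRT5 (ENSBTAG00000038384) and KRT14 (ENSBTAG00000007583), that is 4 keratins, the intermediate filament proteins of epithelia, and desmoplakin, which ties keratin filaments to desmosomes. KRT17 stood at 10157, 4097, 5137, 7077 and 13365 CPM in libraries 1 to 5, a mean of 7967 ± 3798 CPM. Libraries 5 and 1 were high and library 2 was low for KRT17. DSP stood at 6527, 5069, 3889, 8878 and 11250.2 CPM, a mean of 7123 ± 2964 CPM, and followed the general order with library 3 low and library 5 high. KRT6A ranged from 1974 to 7668 CPM and KRT14 from 1667 to 6298 CPM, again highest in library 5. KRT5, the usual basal partner of KRT14, was more even, at 3914, 3318, 3097, 4489 and 3875 CPM, and its highest value was 1.45-fold its lowest.

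Genes of other kinds filled the next places. S100A12, a calcium-binding protein of the calgranulin group, stood at 3136, 1488, 1812, 3992 and 4019.9 CPM, low in libraries 2 and 3 and high in libraries 4 and 5. AHNAK, a very large scaffold protein, averaged 2186 ± 594 CPM, EEF1A1, a translation elongation factor, 2023 ± 771 CPM, and PLEC (plectin), which links keratins to hemidesmosomes, 1826 ± 424 CPM. KRT15, a keratin of basal cells, averaged 1749 ± 632 CPM and was highest in library 4. PRDX6, a peroxiredoxin that reduces peroxides, was the least even of the first 25 genes, at 1312, 538, 591, 1817 and 3613 CPM. Library 5 stood above all others for PRDX6, 6.71-fold over library 2, and 4.32-fold between extremes when scaled to coding reads. The first 25 also held MYH9, ACTB, SYNE2, SRRM2, SELENBP1, RPLP1, MACF1, BPIFA2C, EEF2, RPS2, ANXA1, DSG3 and FABP5, with means from 962 CPM (FABP5) to 1524 CPM (MYH9). All 25 were highest in library 4 or 5 on TMM, where these libraries lead for 33.6% and 40.8% of genes averaging 10 CPM or more. Scaled to coding reads 18 were, where these libraries lead for 19.2% and 15.5% of such genes. Of the 25, 6 varied at least 3-fold, against 5.91% of all coding genes averaging 10 CPM or more. Scaled to coding reads only PRDX6 and BPIFA2C did, 2 of 25 against 3.71%. The plot of these genes by library shows this spread, for 24 of the 25.

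**Figure D1:**
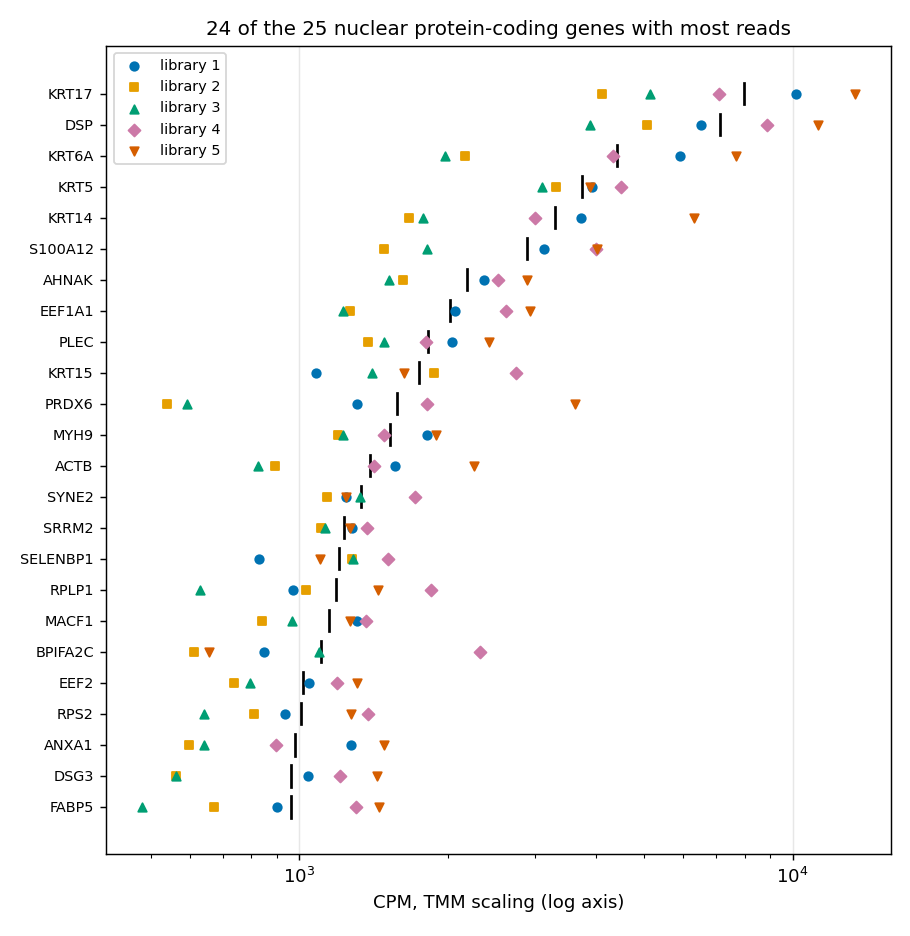
CPM (log axis) of 24 of the 25 nuclear protein-coding genes with most reads, 1 point per library and a bar at the mean of 5. KRT17 leads at a mean of 7967 CPM, and PRDX6 shows the widest range, from 538 to 3613 CPM.

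By family, ribosomal proteins and keratins took similar shares. The 86 ribosomal protein genes held 4.69, 4.57, 3.69, 6.01 and 5.32% of coding reads in libraries 1 to 5, a mean of 4.86 ± 0.868%, with 83 genes detected. The 52 keratin genes held 5.42, 3.80, 3.86, 4.34 and 6.15%, a mean of 4.71 ± 1.03%, but only 15 were detected, 5 of them among the first 25 genes. Ribosomal proteins were highest in library 4 and keratins in library 5, and both shares are already relative to coding reads. Heat shock and DNAJ proteins, which fold other proteins, held 1.35 ± 0.181% over 72 genes. The hnRNP and SR splicing factors held 1.26 ± 0.0369% over 31 genes. Of their 29 members at 10 CPM or more, 8 stayed under 1.5-fold on the TMM scale, against 19.4% of all such genes, and 25 when scaled to coding reads, against 43.7%. Solute carriers, the largest family of membrane transporters, held 1.12 ± 0.0579%, with 168 of 323 genes detected and 75 at 10 CPM or more. Cytochromes P450, enzymes that oxidise foreign compounds, retinoids and sterols, held 0.117 ± 0.0221% with 16 of 38 detected. For these family counts, 67.6% of all coding genes were detected and 43.7% averaged 10 CPM or more. Coding reads were most concentrated in library 5, where the first 10 genes held 10.6% of them, and least in library 3, where they held 6.69%.

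**Figure D2:**
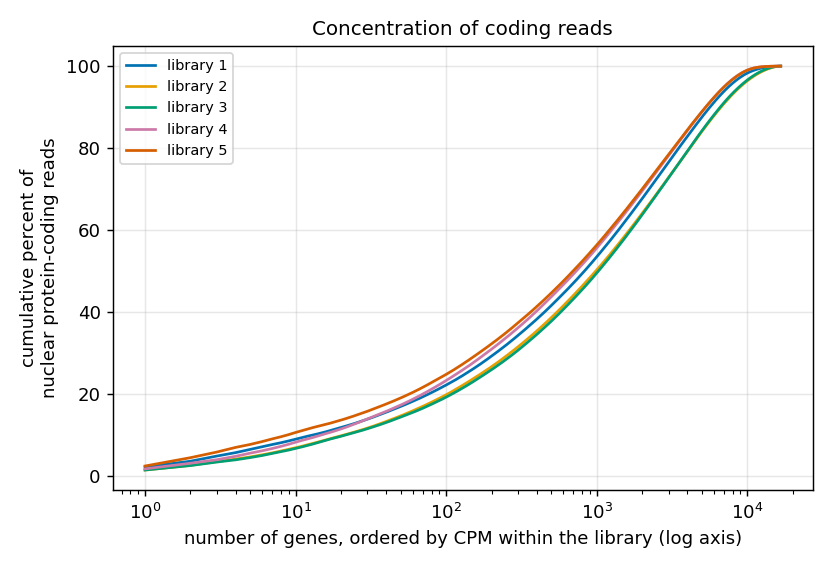
Cumulative percent of nuclear protein-coding reads (y axis) against the number of genes ordered by CPM within each library (x axis, log scale), 1 line per library. Library 5 lies above the others over the first genes, reaching 24.8% at 100 genes, and library 3 lowest, reaching 19.2%.

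The basal layer was well represented. Of 18 listed basal genes 17 were detected, against 67.6% of all coding genes, and the list had a median of 304 CPM. Besides the keratins, COL17A1, the hemidesmosome collagen, averaged 707 ± 112 CPM, and TP63, the transcription factor that marks stratified epithelia, 452 ± 94.6 CPM. COL17A1 and KRT5 differed by less than 1.5-fold between libraries on the TMM scale, and KRT14 by 3.78-fold. KRT17, KRT14 and KRT6A did not keep a fixed ratio to KRT5. KRT17 over KRT5 was 2.60, 1.23, 1.66, 1.58 and 3.45, and KRT14 over KRT5 was 0.951, 0.502, 0.575, 0.668 and 1.63 in libraries 1 to 5, figures that no scaling of libraries changes. Both ratios were highest in library 5 and lowest in library 2, and KRT6A over KRT5 was likewise highest in library 5, at 1.98. KRT15 over KRT5 ran otherwise, from 0.277 in library 1 to 0.613 in library 4.

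KRT10, KRT1 and KRT4, keratins of the middle layers of skin and mouth, had few reads, and KRT13 and KRT76 are not analysed here. KRT10 stood at 2.41, 2.57, 3.66, 4.17 and 4.52 CPM, KRT1 at 0.905, 1.49, 2.13, 0.777 and 0.194 CPM and KRT4 at 0.453, 3.05, 1.27, 0.123 and 0.614 CPM. These are 32 to 140, 6 to 32 and 3 to 51 reads per library. KRT6A, a keratin of mouth lining, hair follicle and wounded skin, had the most reads in this list. KRT78 averaged 259 ± 124 CPM and KRT6B 245 ± 281 CPM. KRT6B stood at 123, 107, 72.9, 180.3 and 742 CPM: library 5 was far above the rest, 10.2-fold over library 3 (6.60-fold scaled to coding reads). KRT6A and KRT6B lie side by side, and KRT14, KRT16, KRT17 and KRT42 do too, in the RefSeq order of the assembly ARS-UCD2.0, and such keratin copies are alike in sequence. How the authors counted reads that match several genes is not given in the sources used here, so values of single keratins carry that uncertainty, including the 0.805 CPM of KRT16. The desmosomal cadherin of upper skin layers, DSG1, was at 5.38 ± 3.51 CPM, while DSG3 was at 962 ± 390.3 CPM. KRT13, FLG and LOR matched no symbol of the table used and are not analysed here.

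Genes of the cornified envelope were present at intermediate read levels. EVPL and PPL, envoplakin and periplakin of the envelope scaffold, averaged 488 ± 137 CPM and 367 ± 61.6 CPM. IVL, involucrin, averaged 376 ± 167 CPM and ECM1 375 ± 120.2 CPM. IVL stood at 313, 243, 250.0, 642 and 434 CPM, highest in library 4. The crosslinking transglutaminases TGM3 and TGM1 averaged 213 ± 98.5 CPM and 141 ± 68.1 CPM. Of 29 cornified-layer genes that matched a symbol, 15 were detected and 8 reached 10 CPM, a lower share than the 67.6% and 43.7% of all coding genes. The other 13 of the 42 listed, with SPRR1A, SPRR3, FLG and LOR among them, matched no symbol and are not analysed here. All 18 basal genes matched, so the share above and the sums below cover only part of the cornified list. The summed cornified list over the summed basal list was 0.0752, 0.121, 0.0982, 0.14 and 0.0848, lowest in library 1 and highest in library 4. Regulators of the layers with many reads included TP63, KLF5 (413 ± 104 CPM), PITX1 (232 ± 78.6 CPM) and PAX9 (187 ± 49.8 CPM), of which PITX1 and PAX9 are known from oral and oesophageal epithelium.

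Desmosome genes were nearly all present: 11 of 13 were detected, against 67.6% of all coding genes. After DSP the leading members were DSG3, JUP (565 ± 196 CPM), DSC3 (491 ± 149 CPM), PKP1 (472 ± 178 CPM) and DSC2 (348 ± 199.7 CPM). The gap junction protein GJA1 averaged 858 ± 342 CPM, and GJB2 178 ± 122 CPM. GJB2 stood at 139.5, 87.4, 51.8, 323 and 289.9 CPM, high in libraries 4 and 5, 6.24-fold over library 3 (4.33-fold scaled to coding reads). Of the preset tight junction genes, CLDN1 stood at 24.5, 11.6, 11.1, 21.3 and 26.9 CPM, CLDN4 at 81.6, 34.4, 28.6, 55.8 and 49.7 CPM and OCLN at 49.8, 41.4, 42.4, 90.8 and 65.3 CPM. CLDN1 was highest in library 5, CLDN4 in library 1 and OCLN in library 4, and the 3 had their lowest values in libraries 2 and 3 on the TMM scale. Scaled to coding reads, CLDN1 was highest in library 1 and OCLN lowest in library 1. E-cadherin (CDH1) averaged 183 ± 70.9 CPM, CTNNA1 336 ± 73.3 CPM and CTNNB1 302 ± 76.2 CPM, and 0 of the 20 junction genes at 10 CPM or more in this list varied 3-fold, against 5.91% of all genes, a share near the background.

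**Figure D3:**
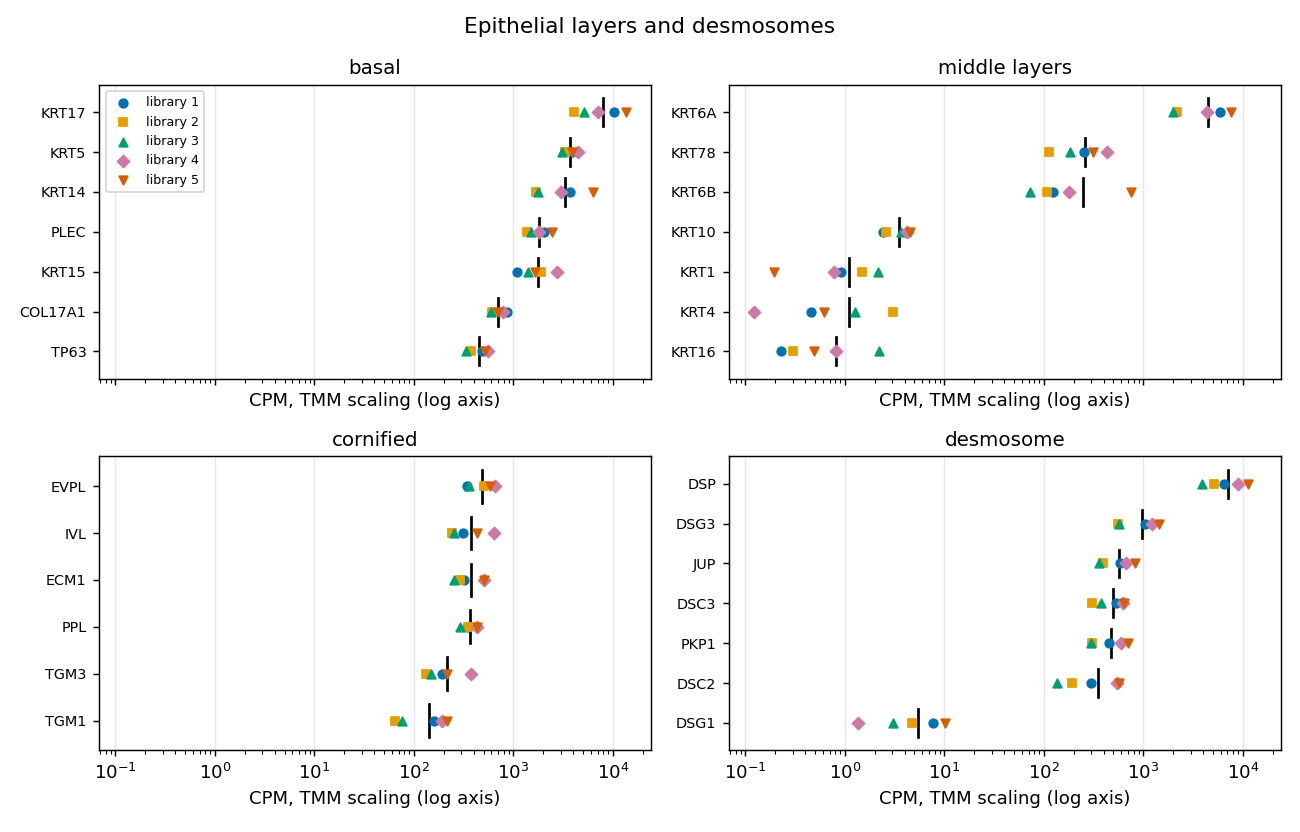
CPM (log axis) of layer, desmosome and cornified-envelope genes, 1 point per library and a bar at the mean of 5, grouped by list. KRT17 and DSP lie at the top, and KRT10, KRT1, KRT4 and KRT16 all lie below 10 CPM in every library.

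Among secreted and defence genes, BPIFA2C and IL36A stood apart in library 4. BPIFA2C, a secreted member of the BPI fold family, stood at 847, 611, 1099, 2325 and 655 CPM, and library 4 exceeded all others. It was the only one of 12 genes of its family that was detected, against 67.6% of all coding genes. DUOX2, a hydrogen peroxide generator of mucosal surfaces, averaged 206 ± 82.03 CPM, and DUOX1 62.3 ± 18.5 CPM. IL36A, an epithelial cytokine of the interleukin-1 family, stood at 9.50, 2.99, 2.86, 35.8 and 9.53 CPM, again highest in library 4. The annexins ANXA1 and ANXA2, membrane-binding proteins, averaged 978 ± 389 CPM and 457 ± 134 CPM. TLR4, the receptor for bacterial lipopolysaccharide, was low at 4.03 ± 1.80 CPM.

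Within the list for transport of short-chain acids, most reads fell on 1 carrier and its chaperone. SLC16A1 (MCT1), a carrier of acetate, butyrate, lactate and ketone bodies, stood at 985, 654, 776, 1239 and 944 CPM, a mean of 919.7 ± 223 CPM. BSG (basigin), the chaperone that brings MCT1 to the membrane, stood at 837, 830.2, 674, 1274 and 835 CPM. Both were highest in library 4, and neither reached a 2-fold range. SLC16A3 (MCT4) stood at 1.66, 1.25, 0.733, 1.55 and 0.581 CPM, which is 11 to 38 reads per library. Of 16 genes in this list only SLC16A1, BSG and SLC16A9 were detected, against 67.6% of all coding genes.

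Exchangers of sodium, protons, chloride and bicarbonate were more numerous. SLC9A2 (NHE2), a sodium/proton exchanger of apical membranes, averaged 83.8 ± 32.3 CPM, and SLC9A3 (NHE3), the main absorptive form of gut and kidney, 32.1 ± 35.2 CPM. SLC9A3 stood at 9.13, 19.7, 14.3, 94.4 and 23.03 CPM, with library 4 10.3-fold over library 1 (9.31-fold scaled to coding reads). SLC26A3 (DRA), a chloride/bicarbonate exchanger, stood at 56.6, 54.9, 29.2, 178 and 83.1 CPM, highest in library 4 as well. SLC4A9, of the bicarbonate transporter family, was more even at 58.2, 48.2, 50.2, 65.1 and 80.3 CPM. Carbonic anhydrases, which interconvert carbon dioxide and bicarbonate, were led by CA12, a membrane form, at 508, 422, 527, 625 and 537 CPM. CA1, a cytosolic form, stood at 115, 6.93, 127, 81.3 and 10.4 CPM and split the libraries: 1, 3 and 4 were high, 2 and 5 low, 18.4-fold apart (18.9-fold scaled to coding reads). CA2 stood at 0.841 ± 0.42 CPM. Red cells also carry CA1. The erythrocyte list held 0 detected genes of 12, against 67.6% of all coding genes. It summed to 3.11 to 18.2 CPM, highest in library 3 and next in library 2, and its part in the CA1 values was not tested. The beta-globin gene HBB had 0 to 13 reads per library.

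Of the beta subunits of the sodium pump, ATP1B3 averaged 432 ± 124 CPM and ATP1B1 18.1 ± 8.34 CPM. Channels for divalent and other cations were TRPM4 (60.1 ± 6.98 CPM), TRPM7 (54.6 ± 10.8 CPM), TRPV4 (30.4 ± 7.28 CPM) and TRPV3 (27.5 ± 9.89 CPM). TRPM6, the magnesium channel of gut and kidney, averaged 4.59 ± 0.771 CPM. The urea transporter SLC14A1 (UT-B) stood at 299, 100.1, 155, 294 and 353 CPM, low in libraries 2 and 3 and 3.52-fold apart (2.29-fold scaled to coding reads). The water channels AQP5 and AQP3 averaged 160.5 ± 55.1 CPM and 120.1 ± 39.5 CPM. Of the ammonia channels, RHBG averaged 9.78 ± 1.61 CPM, and RHCG had 0 to 53 reads per library. Amino acid carriers were led by SLC38A2 (91.2 ± 35.7 CPM), SLC1A5 (83.8 ± 17.1 CPM) and SLC1A4 (74.7 ± 8.68 CPM). Over all 75 solute carriers at 10 CPM or more, 6 varied at least 3-fold and 5 did when scaled to coding reads, against 5.91% and 3.71% of all genes.

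**Figure D4:**
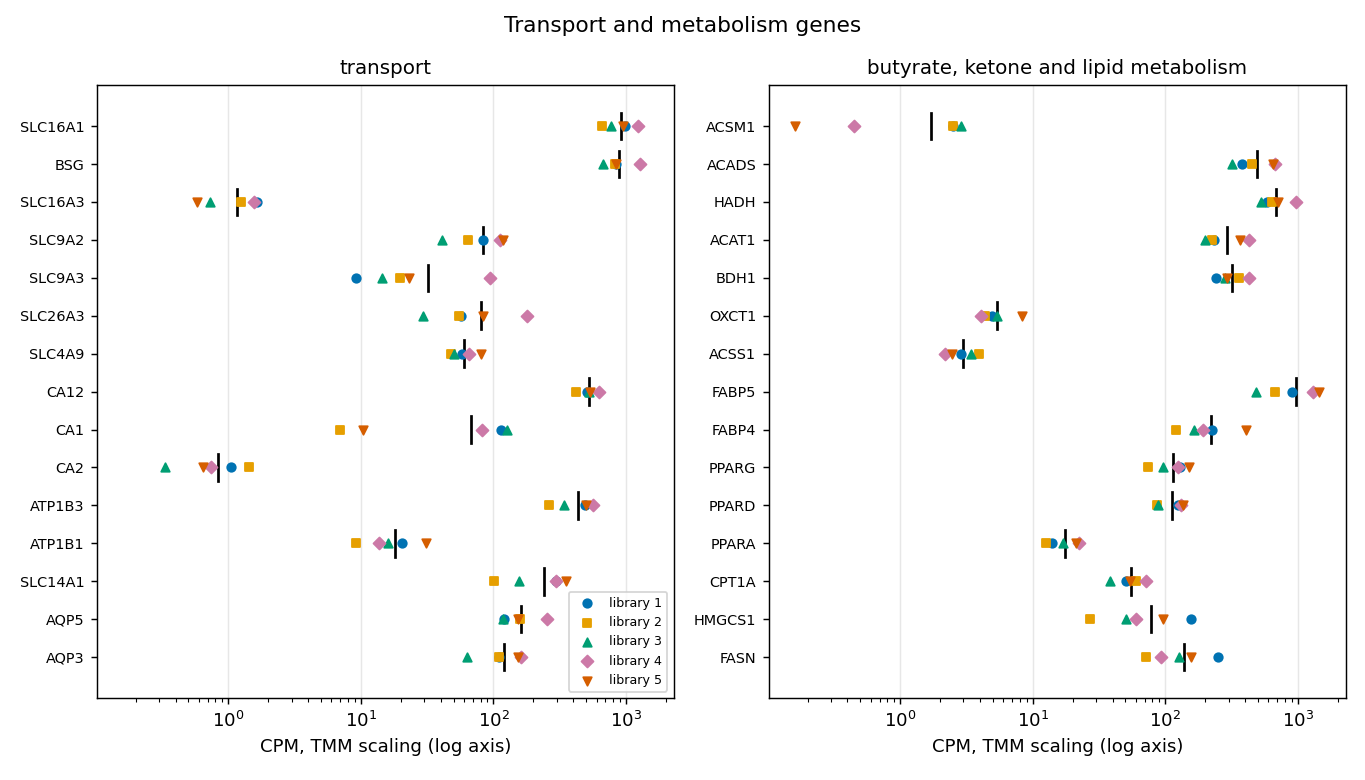
CPM (log axis) of transport genes (left) and of butyrate, ketone and lipid genes (right), 1 point per library and a bar at the mean of 5. SLC16A1 and BSG average 919.7 and 890.0 CPM and SLC16A3 1.16 CPM, and CA1 and SLC9A3 show the widest ranges among the transport genes with a mean above 10 CPM.

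Genes of butyrate oxidation and ketone formation had many reads, apart from the listed activating ligase. ACSM1, which couples butyrate to coenzyme A, stood at 2.49, 2.51, 2.86, 0.45 and 0.161 CPM. ACADS, the short-chain acyl-CoA dehydrogenase, averaged 493 ± 158 CPM, HADH, the next dehydrogenase, 683 ± 170.2 CPM, and ACAT1, the acetoacetyl-CoA thiolase, 291 ± 99.9 CPM. BDH1, which turns acetoacetate into beta-hydroxybutyrate, averaged 321 ± 74.5 CPM. OXCT1, the enzyme by which other tissues use ketone bodies, averaged 5.38 ± 1.67 CPM. Of 23 matched genes in this list 18 were detected, against 67.6% of all coding genes, and 0 of the 15 at 10 CPM or more varied 3-fold, against 5.91%. Library 4 was the highest for 12 of the 15 (33.6% of all genes), and for 9 of 15 when scaled to coding reads (19.2%). ACSS1, the mitochondrial acetate ligase, averaged 2.97 ± 0.716 CPM.

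Among regulators and handlers of fatty acids, PPARG and PPARD averaged 115 ± 30.4 CPM and 113 ± 24.2 CPM and PPARA 17.4 ± 4.36 CPM. The carrier FABP5 averaged 962 ± 411 CPM and FABP4 221 ± 109 CPM, both highest in library 5. CPT1A, which admits long-chain fatty acids to mitochondria, averaged 54.8 ± 12.3 CPM. Glycolysis was led by LDHA (499 ± 147 CPM), ALDOA (345 ± 105 CPM) and GAPDH (250.1 ± 101 CPM). For propionate and the citrate cycle, ME1 averaged 298 ± 119 CPM, SDHA 230.1 ± 53.3 CPM, MDH2 217 ± 61.95 CPM and PCCA 151 ± 42.4 CPM. Of 27 such genes 26 were detected, against 67.6% of all coding genes. The 49 nuclear genes of oxidative phosphorylation were all detected, against the same 67.6%, and were led by ATP5F1A (642 ± 224 CPM) and ATP5F1B (343 ± 99.4 CPM). Library 5 was the highest for 46 of the 49, against 40.8% of all genes, and for 38 scaled to coding reads, against 15.5%. The 13 mitochondrial protein transcripts did not follow: 9 of 13 were highest in library 3, and 12 of 13 when scaled to coding reads, against 4.81% and 27% of all genes. That place of library 3 depends on the scale. These transcripts are not among the coding reads, whose share was lowest in library 3 (25.5%), so scaling to coding reads lifts them there. As a share of total reads they were highest in library 2 (6.49%), with 6.34% in library 3 and 5.52% in library 4, the lowest.

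Lipid synthesis genes were mostly highest in library 1. Of 11 fatty acid synthesis genes at 10 CPM or more, 9 were highest there (8 scaled to coding reads), against a background of 17.8% on either scale. FASN, the fatty acid synthase, stood at 249, 71.1, 127, 92.3 and 156 CPM, and SCD, the delta-9 desaturase, at 90.7, 28.1, 30.98, 50.7 and 66.5 CPM. Of 21 cholesterol synthesis genes 11 were highest in library 1, and 14 scaled to coding reads. HMGCS1, the cytosolic synthase of that pathway, stood at 157, 26.99, 50.4, 59.97 and 95.5 CPM, 5.81-fold between libraries 1 and 2 (4.45-fold scaled to coding reads).

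Genes that handle retinoids and foreign compounds ranged from even to very uneven. ALDH1A1, a retinaldehyde dehydrogenase, averaged 515 ± 103 CPM and CYP26A1, which degrades retinoic acid, 185 ± 56.96 CPM. CYP1A1, the P450 induced through the aryl hydrocarbon receptor, stood at 24.1, 81.9, 44.4, 157 and 78.7 CPM. CYP2C18, another P450, had the widest range of all coding genes averaging 30 CPM or more, at 8.30, 54.04, 20.7, 204 and 23.9 CPM. Library 4 was 24.6-fold over library 1 for CYP2C18 (22.1-fold scaled to coding reads). Of 10 P450 genes at 10 CPM or more, 8 were highest in library 4, and 7 scaled to coding reads, against 33.6% and 19.2% of all genes. GSTA1, a glutathione transferase, averaged 179 ± 129.9 CPM and was also highest in library 4. FTH1, the ferritin heavy chain, averaged 530.2 ± 294 CPM and was highest in library 5.

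Cell division genes had reads in every library. All 40 listed genes were detected, against 67.6% of all coding genes. MKI67 had the most reads of them, at 245, 301, 161, 219.6 and 425 CPM. By TMM scaling 30 of the 33 members at 10 CPM or more were highest in library 5, against 40.8% of all genes, whereas scaled to coding reads 29 of 33 were highest in library 2, against 20.6%, so the library with most division genes depends on the scale. Of growth factor genes IGFBP5, an IGF-binding protein, stood at 233, 506, 278, 942 and 288 CPM, highest in library 4 on both scales, and EGFR averaged 215 ± 58.7 CPM. NPAS2, a partner in the circadian clock, averaged 487 ± 167 CPM, more reads than any other listed clock gene. The library of highest value differed among clock genes: 7 of 15 in library 4, against 33.6% of all genes, and 5 of 15 in library 2, against 2.96%. Scaled to coding reads, 9 of 15 were highest in library 2, against 20.6%.

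Markers of connective tissue, smooth muscle and endothelium were detected, and markers of blood cells were low. Most connective tissue and smooth muscle markers varied between libraries. COL3A1, COL1A1 and COL1A2, fibrillar collagens made by fibroblasts, averaged 327 ± 312 CPM, 246 ± 285 CPM and 147 ± 161 CPM. The 24 matrix genes summed to 2006, 1002, 1139, 923 and 4436 CPM in libraries 1 to 5, so library 5 held 4.81-fold the sum of library 4. Of 21 members at 10 CPM or more, 18 varied at least 3-fold on either scale, against 5.91% and 3.71% of all genes. Library 5 was the highest for 19 of the 21 and for 18 scaled to coding reads, against 40.8% and 15.5% of all genes. Library 4 was the lowest for 16 and 17, against 5.66% and 19.4%. Without library 5, 13 of the 21 still varied (14 scaled to coding reads), and without library 4, 17 (11 scaled to coding reads). Smooth muscle genes were uneven too, with 8 of 9 varied (7 scaled to coding reads), but 3 (1) without library 4 and 5 (7) without library 5. ACTA2, smooth muscle actin, stood at 39.4, 38.8, 35.4, 13.4 and 99.8 CPM and MYH11, the smooth muscle myosin, at 61.6, 139, 79.2, 30.5 and 148 CPM. Of 19 endothelial genes 16 were detected, against 67.6% of all coding genes, and VWF averaged 89.4 ± 31.97 CPM. Of the 10 endothelial genes at 10 CPM or more, 3 varied (1 scaled to coding reads), against 5.91% and 3.71% of all genes. Immune markers had few reads: CD3G averaged 9.05 ± 5.31 CPM and the pan-leukocyte PTPRC 21.3 ± 2.34 CPM. None of the 22 T and NK cell genes reached a mean of 10 CPM, against 43.7% of all coding genes. Even so, 10 of these 22 were detected, as were 11 of 21 myeloid and 3 of 12 B and plasma cell genes, against 67.6%. The T and NK cell sum (46.2 to 66.0 CPM) and the B and plasma cell sum (7.36 to 27.6 CPM) were highest in libraries 2 and 3, as were the olfactory receptor reads. The myeloid sum was highest in library 3 and next in library 5. The part of background reads in these immune values was not tested. KRT8 and KRT18, keratins of simple glandular epithelium, averaged 8.35 ± 3.82 CPM and 2.02 ± 1.54 CPM. Their list of 15 glandular and intestinal genes summed to 88.3 ± 21.1 CPM, of which 1 other gene held 76.7%. Of the 15, 2 were detected, against 67.6% of all coding genes. Set against the labelled tissue, the basal, desmosome and matrix markers were detected and the red cell markers were not.

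**Figure D5:**
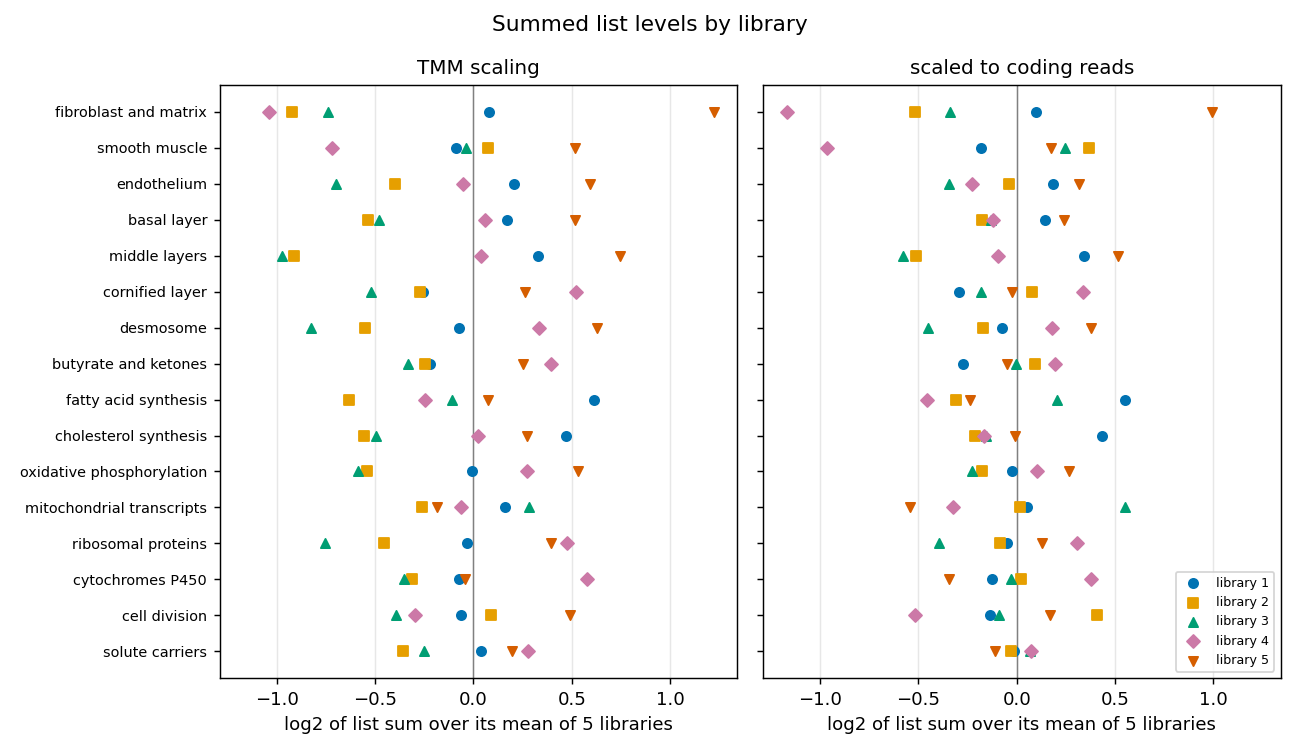
Log2 of each list's summed CPM in a library over its mean of the 5 libraries, with TMM scaling (left) and scaled to coding reads (right), 1 point per library. Matrix genes are highest in library 5 in both panels, ribosomal proteins in library 4, and cell division moves from library 5 to library 2 between the panels.

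Spread between libraries was moderate for most genes. Over the 7273 genes averaging 10 CPM or more the median ratio of highest to lowest library was 1.84, and 1.55 scaled to coding reads. On the TMM scale 430 genes (5.91%) varied at least 3-fold and 1413 (19.4%) stayed under 1.5-fold. Scaled to coding reads, the counts were 270 (3.71%) and 3176 (43.7%). Without library 5 the count of varied genes fell to 260, and without library 2 the count under 1.5-fold rose to 2537. The biological coefficient of variation, edgeR's estimate of spread beyond counting error, was 32.4%. Pairs of libraries correlated across genes at Pearson r = 0.919 to 0.974 on log2 of CPM plus 1, where genes are not independent replicates. The chi-square of their counts per degree of freedom was 13.6 to 59.2. No pair therefore agreed within sampling noise, as 1 library deposited in duplicate would. On the TMM scale, 501 of 13632 genes averaging 1 CPM or more were at least 2-fold apart between libraries 2 and 3. Between libraries 4 and 5 there were 565, and 2727 to 3222 for either of 2 and 3 against either of 4 and 5. Pairs with library 1 gave 943 to 1540. Libraries 2 and 3 also had the most olfactory receptor reads, and the part of that background in this split was not tested.

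The widest spreads fell on a few kinds of gene. Of genes averaging 30 CPM or more, the 10 largest ratios belonged to CYP2C18, CA1, TNC, COL1A1, SLC9A3, FN1, FBXO16, KRT6B, COL1A2 and COL6A1, from 24.6-fold down to 8.09-fold. TNC, tenascin of the connective tissue matrix, stood at 80.9, 30.3, 31.8, 11.8 and 175 CPM, and FN1, fibronectin, at 58.8, 46.9, 33.8, 20.3 and 209.5 CPM. These 2 and the 3 collagens were highest in library 5. They belong to the matrix list, so they are part of its large sum in library 5 and not a separate result. The part of connective tissue in the values of KRT6B, KRT17 and PRDX6, which were also highest in library 5, was not tested. FBXO16, an F-box protein, ran the other way, at 26.2, 58.9, 76.9, 10.4 and 7.46 CPM, highest in libraries 2 and 3 and lowest in library 5, as were the olfactory receptor reads. The part of that background in the value of FBXO16 was not tested. The 10 smallest ratios were those of CIZ1, ITPR1, AKAP17A, SRSF4, SHROOM4, BRD3, NCAPH2, SIK3, ASPSCR1 and CDHR4, between 1.04-fold and 1.13-fold. Scaled to coding reads their ratios were 1.47 to 1.69, and of the 10 only BRD3 and CIZ1 stayed under 1.5-fold. Of 13 genes often used as references, 0 stayed under 1.5-fold on the TMM scale (19.4% of all genes) and 4 when scaled to coding reads (43.7%). Their median ratio was 2.55, against 1.84 for all genes, and 1.76 against 1.55 scaled to coding reads. ACTB stood at 1564, 893, 824, 1417 and 2259 CPM and GAPDH at 276, 162, 182, 218 and 413 CPM, with the lowest values in libraries 2 and 3 for both on the TMM scale.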

How the data were processed

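RNA of rumen papillae was sequenced in 18 libraries, of which the 5 labelled 100% forage and control were described. The authors deposited raw counts per gene (27270 Ensembl identifiers), made on the cattle build bosTau9 after demultiplexing with bcl2fastq 2.20, per the submitters' processing notes. A second deposited table holds DESeq2-normalized signal, the same counts divided by 1 factor per library (checked to a tolerance of 0.001), and was not used further. Per the labels' protocols, total RNA went into a strand-marking library kit (SMART-Seq Stranded). Which aligner, counting tool and strand setting were used is not given in the sources used here, so overlapping, antisense and near-identical genes could share reads. Nothing in the labels says whether the 5 libraries are separate cows, and the SD then covers only the spread between these libraries.

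From the counts, CPM was computed on TMM effective library sizes over all 18 libraries (edgeR 4.0.16, R 4.3.3). Symbols were matched to RefSeq (ARS-UCD2.0) to find 16646 nuclear protein-coding genes. The table gives 7506 genes no symbol, and 2212 symbols were unmatched. "Detected" is at least 1 CPM in all 5 libraries, "varied" a highest library at least 3-fold the lowest and "steady" under 1.5-fold, both at a mean of at least 10 CPM. The biological coefficient of variation is edgeR's common dispersion after filterByExpr, and its script was tested on simulated data. Named genes are the 25 with most reads, up to 6 leading members of each list, undetected members, the 10 widest and 10 narrowest ratios at a mean of at least 30 CPM, and preset genes. The rule also asked for genes ordered per length, which was not run because no transcript lengths were used. Members and lists were chosen with earlier results of these data known. Alternatives were total reads, DESeq2 1.42.0 size factors, coding reads only, other thresholds, thinning to the lowest total, other gene sets, medians, and leaving out each library. No sequence was printed, and some genes that the rule names are not reported here.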

Additional observations from a re-analysis of the deposited data

Results flagged for a closer look

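On the TMM scale, of 224 values examined for a library far from the other 4, 13 stood out by the gap between the extreme library and its neighbour relative to the whole range. Chance marks about 1 in 20, and 13 of 224 is close to that rate. The rate is also rough, because some genes are named for their spread in these same libraries. CYP2C18, SLC9A3, FN1, KRT6B and COL1A2 were among the 10 widest ratios and SHROOM4 among the 10 narrowest. Library 4 was the high one for CYP2C18 at 204.0 CPM, SLC9A3 at 94.4 CPM, IL36A at 35.8 CPM, BPIFA2C at 2325 CPM and BSG at 1274 CPM. It also held the highest sums of the cytochrome P450 genes, 791 CPM, and of the BPIF family, 2330.0 CPM, most of which is BPIFA2C. Library 4 was the low one for SHROOM4 at 41.04 CPM and for HBB, with 0 reads, which allows up to 0.123 CPM. Library 5 was the high one for KRT6B at 742 CPM, COL1A2 at 427 CPM and FN1 at 209.5 CPM, and library 1 for DUSP1 at 84.8 CPM. Whether these values also stand out scaled to coding reads is not given. For BSG the ratio of highest to lowest library was 1.89, and 1.63 scaled to coding reads. A pair of genes without a symbol, which no result uses, held 49.2% of all reads of the 5 libraries.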

How the results depend on the processing

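Detection, concentration of reads, and keratin and ribosomal protein shares stayed within 1.5 times or 1 SD of their values under all alternatives run. Of the levels of named genes, only ITPR1 moved over 1 SD (61.9 CPM with coding reads only, against 60.7 ± 1.02). For levels this check could hardly fail, so it says little about them. A median, or a mean without 1 library, cannot lie over 1 SD from the mean of all 5. The other scalings were set to the same average library size. Between 22 and 25 of the first 25 genes were shared with the main order. The counts of spread did not stay within 1.5 times. With CPM from total reads 892 genes varied and 913 were steady. With CPM of nuclear protein-coding reads, where the 10 CPM minimum was also applied on that scale, 281 varied and 3167 were steady. A limit of 2-fold in place of 3-fold gave 2730 varied genes. Leaving out 1 library at a time gave 260 to 382 varied genes and 1764 to 2537 steady ones, with fewer libraries entering each ratio. The biological coefficient of variation was 52.8% with no filter on low counts, where more low genes enter, and 28.4% to 36.2% under the other alternatives. Added after seeing the data, leaving out each library left 13 to 18 of 21 matrix genes and 3 to 8 of 9 smooth muscle genes varied (3 without library 4, 5 without library 5). No paired analysis was possible because no groups were compared. The order of genes per kb of coding length was not run. Depth limits the low genes: 3 reads are 0.0969 to 0.226 CPM, so values near or below 1 CPM rest on few reads, and the strand and multi-mapping rules are unknown for the keratins.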

Other observations

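Some genes divided the 5 libraries in ways that no list described. They were chosen after their values were seen, and no test was made of them. RBP4, the retinol-binding protein, stood at 22.2, 145, 49.6, 108 and 29.9 CPM in libraries 1 to 5, so libraries 2 and 4 were high and the other 3 low. LIFR, the leukaemia inhibitory factor receptor, was also high in these 2, at 20.7, 90.9, 30.2, 87.2 and 23.3 CPM, as was CTTNBP2, a cortactin-binding protein, at 25.9, 166, 27.2, 148 and 23.3 CPM. AOX1, an aldehyde oxidase, stood at 21.9, 73.9, 32.5, 56.9 and 18.2 CPM, and PRSS35, a secreted serine protease-like protein, at 6.86, 38.5, 6.60, 46.5 and 2.97 CPM. The peptide carrier SLC15A1 (PEPT1) was low but split the same way, at 2.79, 15.2, 2.47, 21.9 and 2.75 CPM. Libraries 2 and 4 differ in depth and in olfactory receptor reads, which were high in library 2 and low in library 4. The part of depth or background in the values of these genes was not tested.

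Immediate early genes, which switch on within minutes of a stimulus, were uneven. FOS stood at 210.4, 89.4, 67.4, 44.2 and 104 CPM, FOSB at 39.2, 35.2, 1.999, 0.818 and 14.3 CPM and DUSP1, a phosphatase of stress kinases, at 84.8, 33.98, 14.4, 19.6 and 26.1 CPM. FOS and DUSP1 were highest in library 1 on both scales, and FOSB in library 1 on the TMM scale and in library 2 when scaled to coding reads. ADH6, an alcohol dehydrogenase, was high in libraries 3 and 5 only, at 1.73, 3.34, 31.6, 1.19 and 51.3 CPM for the more read of the 2 genes with this symbol. S100A9, the partner of S100A8 in calprotectin, stood at 38.1, 2.81, 18.8, 28.9 and 28.1 CPM, low in library 2 and 13.6-fold apart, while S100A12 differed 2.70-fold. The genes of the muscle proteins NEB and RYR1, large transcripts, stood at 10.6, 27.4, 31.98, 2.82 and 3.26 CPM and 10.6, 24.6, 22.5, 5.44 and 4.10 CPM, highest in libraries 2 and 3 as were the olfactory receptor reads, and the part of that background in them was not tested.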
